A study of Mus musculus with 16 samples.

Results

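The small leucine-rich proteoglycans (SLRPs) are secreted matrix proteins, and 8 of their genes were followed here in mouse subchondral bone: Dcn (decorin), Bgn (biglycan), Aspn (asporin), Lum (lumican), Fmod (fibromodulin), Prelp (the proline/arginine-rich repeat protein), Omd (osteomodulin) and Ogn (osteoglycin, also called mimecan). The 8 genes were chosen with earlier results of these data known. All array probes whose gene name in the files was 1 of these 8 were taken, and no measured value entered that choice of probes. This gave 12 of the 56605 probes on the array, standing for 8 of its 36827 gene or transcript names. The arrays held RNA from bone beneath the medial tibial cartilage of male wild-type C57BL6 mice that were 10 to 12 weeks old at surgery. In the DMM groups both knees had destabilization of the medial meniscus, a model of post-traumatic osteoarthritis in which the ligament tethering the meniscus to the tibia is cut. In the sham groups both knees were opened and the ligament was seen but left whole, so that sham joints also carry the effects of arthrotomy and flushing. The 4 groups were DMM at 6 weeks, sham at 6 weeks, DMM at 1 week and sham at 1 week after surgery, with 4 arrays each and 1 joint of 1 mouse per array. A laser cut the tissue out of 10 µm cryosections of decalcified epiphyses. The pieces of a joint were combined, and labelling with 1 dye started from 100 ng of its RNA.

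SLRPs share a core of leucine-rich repeats, bind fibrillar collagens and shape how collagen fibrils assemble, and several of them also bind growth factors of the TGF-beta and BMP families or innate immune receptors. Decorin, biglycan and asporin form class I, of which the first 2 usually carry chondroitin or dermatan sulfate chains. Lumican, fibromodulin, the Prelp product and osteomodulin belong to class II, whose members carry keratan sulfate or no long chain, and osteoglycin belongs to class III. In bone, biglycan and decorin lie in the matrix made by osteoblasts, osteomodulin binds hydroxyapatite, and the Prelp product is best known from cartilage and basement membranes. Several of the genes are chromosomal neighbours: in RefSeq's annotation of GRCm38.p6, Dcn lies next to Lum, Aspn next to Omd, Omd next to Ogn, and Prelp next to Fmod, while Bgn is on the X chromosome.

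The measurements rest on what each 60-base probe can bind, so the probes of 3 genes that the results turn on are shown, as the files give them with mm9 positions. The Dcn probe, at chr10:96980233-96980289 on the plus strand up to the base printed last, ends just past the coding sequence, and capitals mark the stop codon of decorin. The Bgn probe that stands for the gene lies at chrX:70738554-70738613 on the plus strand, and 1 of its 3 forward frames is free of stop codons. The Prelp probe shown lies on the minus strand of chromosome 1, and its listed span of 135809343 to 135811065 covers 1723 bases for 60 bases of probe, so it crosses a splice junction and spliced RNA is what it matches in full.
Dcn probe A_51_P334104: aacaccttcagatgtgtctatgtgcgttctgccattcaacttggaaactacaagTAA
Bgn probe A_52_P162486: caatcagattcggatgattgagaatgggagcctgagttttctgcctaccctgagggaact
Prelp probe A_65_P16773: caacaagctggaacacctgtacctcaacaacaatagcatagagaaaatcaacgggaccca

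A probe entered the tests if the scanner software found it well above background on 4 arrays or more, which 10 of the 12 probes did, and they measured 7 of the 8 genes. Bgn had 3 such probes and Prelp 2, and each of these genes is given by its brightest probe, called the leading probe. The probes of Dcn, Lum, Fmod, Omd and Ogn, and the leading probes of Bgn and Prelp, were well above background on all 16 arrays. Values below are levels in log2 units relative to the 75th percentile of the same array, so that 0 is that percentile itself, and levels of different genes are not comparable because probes differ in brightness.

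That 75th percentile ranged from an intensity of 328.8 to 873.0 among arrays, 65.2% to 79.5% of probes were well above background, and 0 spots were saturated. Array number limits the precision: over all genes, log2 differences had a median standard error of 0.30 with 4 arrays a side and 0.21 with 8 arrays a side. Sham replicate 2 at 6 weeks stood apart from the other arrays, with the lowest 75th percentile and a first principal component score of 176.54 against -69.6 to 71.74 for the others. Of the marker lists, all 9 osteoblast, all 5 osteocyte and all 9 chondrocyte genes were measured. So were all 5 neutrophil and all 4 erythroid genes, and 4 of 5 skeletal muscle genes. Passing the filter therefore does not tell which tissue was cut out. In bulk tissue, fewer cells of a type and less RNA per cell cannot be told apart.

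None of the 7 measured genes passed the threshold between DMM and sham joints. Decorin, the 1 gene with an unadjusted p under 0.05, had a DMM mean above the sham mean by 0.61 on the log2 scale over both times, and its adjusted p was 1. Between the times after surgery, Prelp read higher at 6 weeks than at 1 week on both of its measured probes. The leading probe missed the threshold (adjusted p = 0.0649), and the probe across the splice junction had an adjusted p of 0.0476 in a fit of every probe that was added after seeing the data. Decorin, lumican and osteomodulin varied together from joint to joint, and fibromodulin had a Pearson r of 0.60 to 0.69 with each of them.

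**Figure D1:**
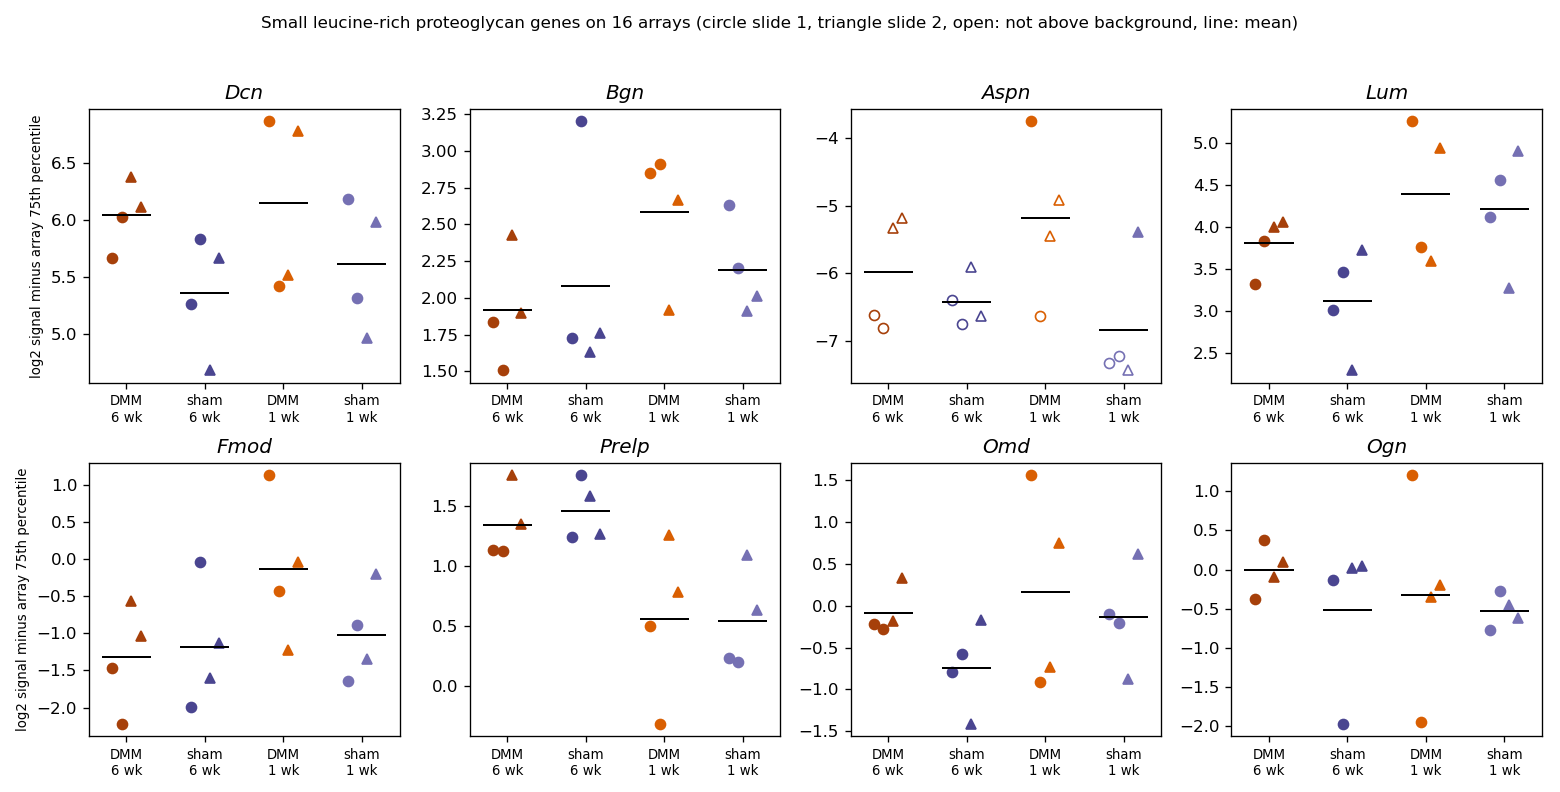
Level of each SLRP gene on each of the 16 arrays, on the y axis as log2 signal minus the array's 75th percentile, by group on the x axis, with the group mean as a line, circles for slide 1, triangles for slide 2 and open symbols for spots not well above background. Prelp is higher in both 6-week groups than in the 1-week groups on average, Aspn is open on 14 of 16 arrays, and the DMM and sham points of each gene overlap.

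Decorin, the class I proteoglycan that limits the thickness of collagen fibrils and binds TGF-beta, had levels of 5.67, 6.02, 6.37 and 6.11 in DMM joints at 6 weeks, against 5.26, 5.83, 4.69 and 5.66 in sham joints. At 1 week its levels were 6.86, 5.42, 5.52 and 6.78 in DMM joints, against 6.18, 5.32, 4.97 and 5.98 in sham joints. The groups overlapped at both times. All 4 DMM joints lay above the sham mean of their time at 6 weeks, and 2 of 4 did so at 1 week. The difference, DMM minus sham, was 0.68 ± 0.38 (SE) at 6 weeks and 0.53 ± 0.38 at 1 week, with unadjusted p = 0.0887 and 0.176. Within slide 1 and slide 2 it was 0.30 and 1.07 at 6 weeks, and 0.39 and 0.67 at 1 week. Averaged over both times, Dcn was 6.09 ± 0.55 in DMM joints and 5.49 ± 0.51 in sham joints (SD, n = 8 each), a difference of 0.61 ± 0.27 with a 95% interval of 0.042 to 1.17, unadjusted p = 0.0369 and adjusted p = 1. The DMM value was above the sham mean of both times pooled in 7 of 8 joints, and the difference was 0.35 within slide 1 and 0.87 within slide 2. With array weights it was 1.11 (adjusted p = 0.167), and 1.25 at 6 weeks and 0.97 at 1 week. With the authors' value table it was 0.46, and 0.46 at 6 weeks and 0.47 at 1 week.

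Biglycan, its closest relative, which binds BMPs and also signals through Toll-like receptors when released, had levels of 1.84, 1.51, 2.43 and 1.90 in DMM joints at 6 weeks, against 1.72, 3.2, 1.63 and 1.76 in sham joints. At 1 week they were 2.85, 2.91, 1.92 and 2.67 in DMM joints, against 2.63, 2.21, 1.91 and 2.01 in sham joints. The sham value of 3.2 came from replicate 2, the array that stood apart, and every group overlapped its counterpart. The DMM difference was -0.16 ± 0.34 at 6 weeks and 0.39 ± 0.34 at 1 week, and without that sham array the 6-week value was 0.21. Within slides it was -0.79 and 0.47 at 6 weeks, and 0.46 and 0.33 at 1 week.

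Asporin, the class I member with a run of aspartate residues that binds TGF-beta and carries no long chain, was well above background on only 2 of the 16 arrays, DMM replicate 1 and sham replicate 4 at 1 week, at -3.75 and -5.39. Asporin also read -4.92 in DMM replicate 4 at 1 week and -5.19 in DMM replicate 4 at 6 weeks, above -5.39 yet without that flag. Its probe was not well above background on any 6-week array, and it did not pass the filter, so no difference or test is given.

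Lumican, a keratan sulfate proteoglycan of class II that regulates fibril spacing, had levels of 3.33, 3.84, 4.00 and 4.05 in DMM joints at 6 weeks, against 3.01, 3.47, 2.30 and 3.72 in sham joints. At 1 week they were 5.26, 3.76, 3.59 and 4.94 in DMM joints, against 4.12, 4.57, 3.28 and 4.91 in sham joints. All 4 DMM joints at 6 weeks lay above the sham mean while the groups still overlapped, and 2 of 4 did so at 1 week. The DMM difference was 0.68 ± 0.43 at 6 weeks (unadjusted p = 0.132, slides 0.34 and 1.02) and 0.17 ± 0.43 at 1 week (slides 0.17 and 0.18). With array weights the values were 1.40 (adjusted p = 0.149) and 0.53. Without DMM replicate 1 the 1-week value was -0.12, without DMM replicate 4 it was -0.013, and without sham replicate 3 it was -0.14.

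Fibromodulin, which competes with lumican for a site on collagen and helps cross-linking, had levels of -1.47, -2.22, -0.57 and -1.04 in DMM joints at 6 weeks, against -1.99, -0.04, -1.61 and -1.14 in sham joints. At 1 week they were 1.13, -0.43, -1.23 and -0.04 in DMM joints, against -1.64, -0.89, -1.35 and -0.20 in sham joints. DMM replicate 1 at 1 week was the highest of all 16 arrays. The DMM difference was -0.13 ± 0.52 at 6 weeks and 0.88 ± 0.52 at 1 week (unadjusted p = 0.113), where it was 1.61 within slide 1 and 0.14 within slide 2. At 6 weeks the slides gave -0.83 and 0.57, and the value was 0.25 without sham replicate 2 and 0.16 without DMM replicate 2.

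Prelp codes for a class II protein that anchors basement membranes to connective tissue. Its leading probe read 1.14, 1.13, 1.76 and 1.35 in DMM joints at 6 weeks, against 1.24, 1.76, 1.58 and 1.26 in sham joints. At 1 week it read 0.50, -0.31, 1.26 and 0.78 in DMM joints, against 0.24, 0.21, 1.09 and 0.64 in sham joints. The DMM difference was -0.12 ± 0.30 at 6 weeks with a 95% interval of -0.75 to 0.52, and 0.02 ± 0.30 at 1 week with an interval of -0.62 to 0.65. Within slides it was -0.37 and 0.13 at 6 weeks, and -0.13 and 0.16 at 1 week.

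Osteomodulin, a keratan sulfate proteoglycan that osteoblasts secrete into mineralizing matrix, had levels of -0.22, -0.28, -0.18 and 0.33 in DMM joints at 6 weeks, against -0.79, -0.58, -1.41 and -0.17 in sham joints. At 1 week they were 1.56, -0.91, -0.73 and 0.75 in DMM joints, against -0.09, -0.21, -0.88 and 0.62 in sham joints. All 4 DMM joints lay above the sham mean at 6 weeks, and 2 of 4 did so at 1 week. The DMM difference was 0.65 ± 0.48 at 6 weeks (unadjusted p = 0.193, slides 0.44 and 0.87) and 0.31 ± 0.48 at 1 week (slides 0.48 and 0.14). With array weights the values were 1.31 (adjusted p = 0.16) and 0.70. Without DMM replicate 1 the 1-week value was -0.16.

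Osteoglycin, the class III member, a bone matrix protein that also bears on fibril width, had levels of -0.38, 0.37, -0.09 and 0.09 in DMM joints at 6 weeks, against -0.14, -1.97, 0.02 and 0.04 in sham joints. At 1 week they were 1.21, -1.94, -0.36 and -0.19 in DMM joints, against -0.78, -0.27, -0.45 and -0.62 in sham joints. The sham value of -1.97 again came from the array that stood apart, and DMM joints at 1 week held both the highest value of all and a value nearly as low as the lowest. The DMM difference was 0.51 ± 0.54 at 6 weeks (slides 1.05 and -0.03) and 0.21 ± 0.54 at 1 week (slides 0.16 and 0.26). Without sham replicate 2 the 6-week value was 0.024, with array weights it was 0.0097, and without DMM replicate 1 the 1-week value was -0.30.

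Counted together, 0 of the 7 measured genes passed an adjusted p of 0.05 in the DMM comparisons, where the share over all 28250 genes was also 0% at 6 weeks, at 1 week and on average. At an unadjusted p under 0.05 the count was 0 of 7 at 6 weeks (0.779% of all genes), 0 of 7 at 1 week (0.966%) and 1 of 7, Dcn, on average (0.938%). The difference was above 0 for 4 of 7 genes at 6 weeks (46.5% of all genes), for 7 of 7 at 1 week (50.8%) and for 6 of 7 on average (48.2%). At 1 week the Prelp value was 0.02 ± 0.30, and Lum, Omd, Ogn and Prelp changed sign on leaving out 1 array. Dcn, Lum and Omd varied together from joint to joint, so the signs of the 7 genes are not independent. The median difference of the 7 genes was 0.51 at 6 weeks and 0.31 at 1 week, against -0.0228 and 0.0032 over all genes. DMM and sham values separated fully for 0 of 7 genes at 6 weeks (0.499% of all genes) and 0 of 7 at 1 week (1.1%).

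The change of the DMM effect between the times was tested as an interaction, 6 weeks minus 1 week. It was -1.01 ± 0.73 for Fmod, -0.56 ± 0.48 for Bgn and 0.51 ± 0.60 for Lum, and adjusted p was 1 for each of the 7 genes. The count at an unadjusted p under 0.05 was 0 of 7, with 0.683% over all genes, and 4 of 7 values lay above 0, with 48.8% over all genes. Within slide 1 and slide 2 the Fmod value was -2.45 and 0.43, so its sign differed between the slides.

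The osteoblast markers were read beside these values: 5 of 9 were above 0 in DMM against sham at 6 weeks (46.5% of all genes) and 8 of 9 at 1 week (50.8%), with medians of 0.025 and 0.32. The level of the list, as a mean over its 9 genes, ranged from 4.87 to 5.78 in DMM and from 4.68 to 5.71 in sham joints at 6 weeks, and from 5.34 to 6.16 in DMM and from 5.07 to 5.69 in sham joints at 1 week. Chondrocyte markers were above 0 in 1 of 9 at 6 weeks and 5 of 9 at 1 week, with medians of -0.80 and 0.057. Skeletal muscle genes were above 0 in 4 of 4 at both times. B cell and endothelium genes were each above 0 in 3 of 4 at 6 weeks and 4 of 4 at 1 week. Neutrophil genes were above 0 in 4 of 5 at 6 weeks and 0 of 5 at 1 week. The part of any of these lists in the differences of the SLRP genes was not tested.

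**Figure D2:**
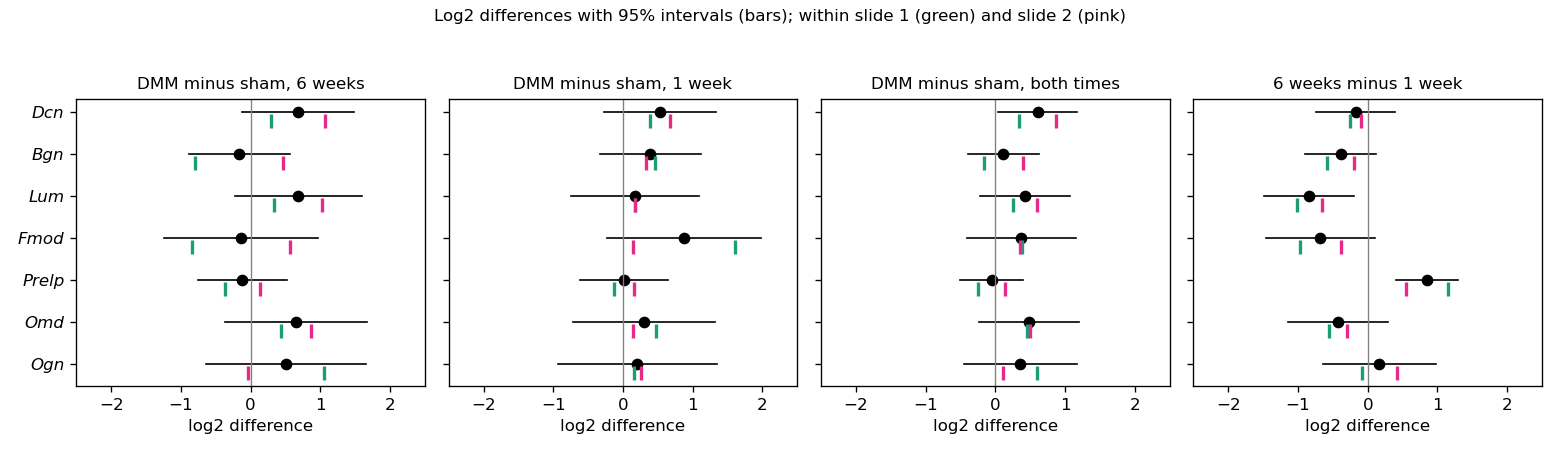
Log2 differences of the 7 measured SLRP genes on the x axis, genes on the y axis, for DMM minus sham at 6 weeks, at 1 week and over both times, and for 6 weeks minus 1 week, with 95% intervals as bars and the values within slide 1 and slide 2 as green and pink marks. The interval of Dcn over both times runs from 0.042 to 1.17, and that of Prelp for 6 weeks minus 1 week lies wholly above 0.

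Time after surgery was compared over both surgeries, 8 joints at 6 weeks with 8 at 1 week. All mice were 10 to 12 weeks old at surgery, so those at 6 weeks were also older. Without an unoperated group, time after surgery and age cannot be told apart in any of the time differences. Prelp averaged 1.40 ± 0.26 at 6 weeks and 0.55 ± 0.51 at 1 week (SD, n = 8 each), a difference of 0.85 ± 0.21 with a 95% interval of 0.40 to 1.30, which is 1.80-fold. All 8 joints at 6 weeks lay above the 1-week mean, although the ranges overlapped at DMM replicate 3 of 1 week, which read 1.26. The difference was 1.16 within slide 1 and 0.55 within slide 2, and it was 0.78 after DMM and 0.92 after sham. Unadjusted p was 0.00109 and adjusted p was 0.0649, so the leading probe did not pass the threshold. It passed with slide as a block (adjusted p = 0.0249), with genes detected on all 16 arrays (0.0466) and with array weights (0.00459). The mean of the gene's measured probes, which is not the leading probe alone, passed (0.0423).

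The probe across the splice junction gave the same direction. It read -1.04, -1.02, -0.97 and -0.51 in DMM joints and -1.13, -1.45, -0.99 and -1.07 in sham joints at 6 weeks. At 1 week it read -2.44, -2.78, -1.34 and -2.09 in DMM joints and -2.42, -3.07, -1.24 and -1.88 in sham joints. Only replicate 3 of each 1-week group reached the range of the 6-week joints. In a fit of all 43268 probes, added after seeing the data, the difference was 1.13 ± 0.25 or 2.19-fold, with adjusted p = 0.0476, 1.51 within slide 1 and 0.75 within slide 2. Under the other processing choices tried, the adjusted p of the leading probe ranged from 0.00459 to 0.0991, and leaving out 1 array at a time gave 0.0226 to 0.159. It passed without DMM replicate 3 at 1 week (0.0226), without sham replicate 3 at 1 week (0.0492) and without sham replicate 2 at 6 weeks (0.0475). Those fits called 695, 311 and 1502 genes for time, against 247 with all arrays. The third Prelp probe, A_55_P2144736, was well above background on 1 of 16 arrays and gave no test.

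Lumican went the other way without passing the threshold, at 3.47 ± 0.59 at 6 weeks and 4.30 ± 0.72 at 1 week. The difference was -0.84 ± 0.30 (unadjusted p = 0.0143, adjusted p = 0.177), with -1.01 within slide 1 and -0.66 within slide 2. None of the 8 joints at 6 weeks lay above the 1-week mean, while the ranges overlapped. With limma's array weights, which count noisier arrays less, Lum, Fmod and Bgn had adjusted p of 0.0103, 0.0483 and 0.0164, in a fit that called 5884 of the 28250 genes (20.8%).

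Biglycan differed by -0.39 ± 0.24 on its leading probe (adjusted p = 0.482), with -0.58 and -0.20 within the slides. Its other probes gave larger values in the fit of each probe. Probe A_55_P2715668 gave -0.74 ± 0.21 (adjusted p = 0.0889, slides -1.19 and -0.28), with 0 of 8 joints at 6 weeks above the 1-week mean. Probe A_52_P19711 gave -0.71 ± 0.25 (adjusted p = 0.153), with -1.44 within slide 1 and 0.01 within slide 2, and it was well above background on 14 of 16 arrays.

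**Figure D3:**
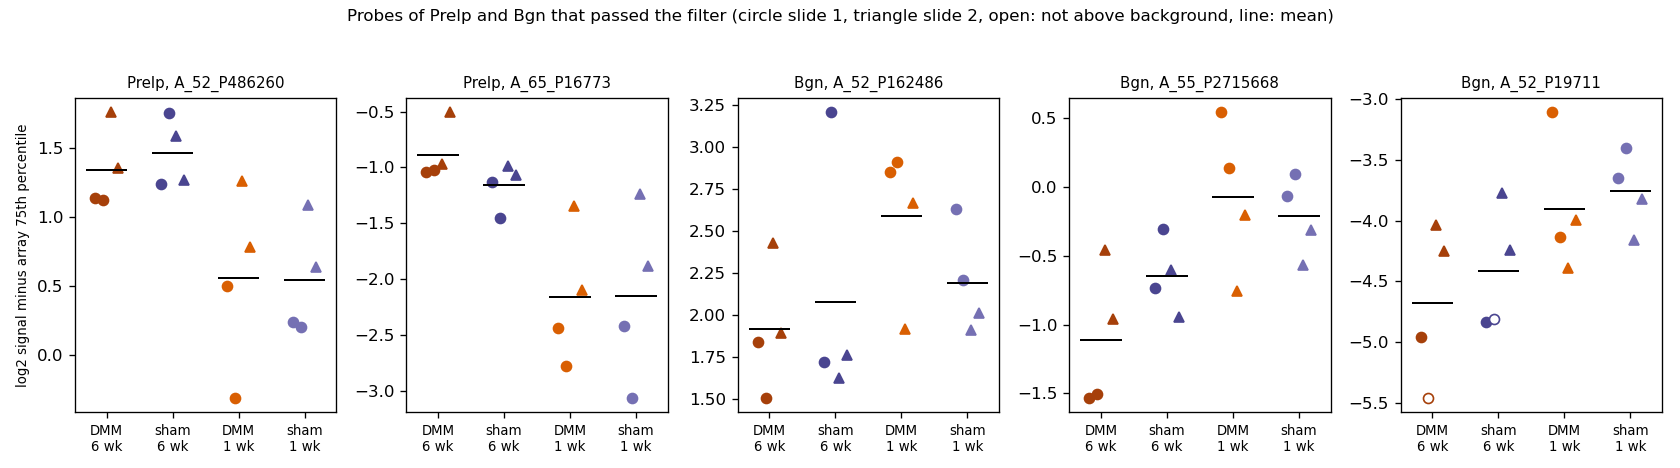
Levels on the y axis, as log2 signal minus the array's 75th percentile, by group on the x axis for the 2 Prelp probes and 3 Bgn probes that passed the filter, with group means as lines, circles for slide 1, triangles for slide 2 and open symbols for spots not well above background. Both Prelp panels sit higher in the 6-week groups, and the Bgn panels sit lower there on average.

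Of the remaining genes, Fmod differed by -0.68 ± 0.37, Omd by -0.43 ± 0.34, Dcn by -0.17 ± 0.27 and Ogn by 0.17 ± 0.38 for 6 weeks minus 1 week, with adjusted p of 0.404, 0.627, 0.847 and 0.902. In all, 0 of 7 genes passed the threshold for time, against 247 of 28250 genes (0.874%). At an unadjusted p under 0.05 the count was 2 of 7, Prelp and Lum, against 15.8% of all genes. The ranges separated fully for 0 of 7 genes (0.658% of all genes). The median of the 7 genes was -0.39, against 0.0386 over all genes, and 2 of 7 were above 0, against 55.6% of all genes.

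Chondrocyte markers, like Prelp, read higher at 6 weeks in 8 of 9, with a median difference of 1.56 and 0 of 9 past the threshold. Their mean level ranged from -1.68 to 1.35 in DMM and from 0.12 to 2.23 in sham joints at 6 weeks, and from -2.04 to -0.22 in DMM and from -1.85 to 0.18 in sham joints at 1 week. Osteoblast markers were lower at 6 weeks in 7 of 9, with a median of -0.50 and 0 called. B cell genes were higher in 4 of 4 (median 0.86, 0 called), skeletal muscle genes in 4 of 4 with 0 called, erythroid genes in 4 of 4 with 1 called (Alas2, the first enzyme of haem synthesis in red cell precursors, by 1.30 with adjusted p = 0.0434), and osteoclast genes were lower in 6 of 6 with 0 called. Their part in the time differences of the SLRP genes was not tested.

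Other genes of the SLRP pathway gave a wider view of time after surgery. The lists were drawn up with earlier results of these data known, so their counts describe and do not test. For comparison, 0.874% of all 28250 genes were called for time, and 55.6% had a difference above 0. Among 9 measured relatives (Kera was not measured), Chad (chondroadherin, a cartilage class IV member) rose by 1.68 ± 0.36 (adjusted p = 0.0443), with 0.45 ± 0.84 at 6 weeks and -1.23 ± 0.67 at 1 week, and slides of 1.76 and 1.61. Epyc, another cartilage relative, differed by 2.08 without passing (adjusted p = 0.103), and the median of the relatives was 0.0001.

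The collagens that SLRPs bind were lower in 10 of 11, with a median of -0.79 and 3 called. Col6a1, a chain of the beaded filaments to which decorin and biglycan attach, fell to 1.98 ± 0.47 at 6 weeks, against 3.27 ± 0.64 at 1 week (-1.29 ± 0.26, adjusted p = 0.0401, slides -1.78 and -0.80). Col6a2 fell by 1.26 and Col12a1 by 1.43 on the log2 scale, with adjusted p of 0.0472 and 0.0486. Col3a1 differed by -2.34 and missed the threshold (adjusted p = 0.0749).

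Among 10 measured proteases that cut SLRPs, 9 were lower with a median of -0.72, and Adamts4, an aggrecanase that also cuts SLRPs, fell by 1.25 (adjusted p = 0.0396, slides -1.81 and -0.69). Of the receptors 8 of 8 were lower (median -0.40, 0 called), and of the growth factors 7 of 8 (median -0.25, 0 called). Of the 8 keratan sulfate genes 6 were lower (median -0.12), and Chst2, a sulfotransferase among them, fell by 0.64 (adjusted p = 0.042, slides -0.83 and -0.45). The chondroitin and dermatan enzymes were lower in 13 of 16 with a median of -0.31 and 0 called, and the genes that start the chains in 4 of 6 (median -0.19, 0 called). All 6 called genes lost the call without the detection filter, with adjusted p of 0.0628 to 0.075, and Col6a2 and Col12a1 also lost it under other scalings (0.0507 to 0.0681). Chad, Adamts4, Col6a1, Col6a2 and Col12a1 kept it only when DMM replicate 3 at 1 week, DMM replicate 3 at 6 weeks, sham replicate 3 at 1 week or sham replicate 2 at 6 weeks was left out, and lost it without each of the other 12 arrays. Chst2 kept it without the first, the second or the last of these arrays. In the DMM comparisons 0 genes of these lists were called, and the collagens were above 0 in 6 of 11 at 6 weeks (median 0.02) and in 11 of 11 at 1 week (median 0.38). The other SLRP relatives were above 0 in 1 of 9 at 6 weeks (median -0.44) and in 7 of 9 at 1 week (median 0.10). The share of all genes above 0 was 46.5% at 6 weeks and 50.8% at 1 week.

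**Figure D4:**
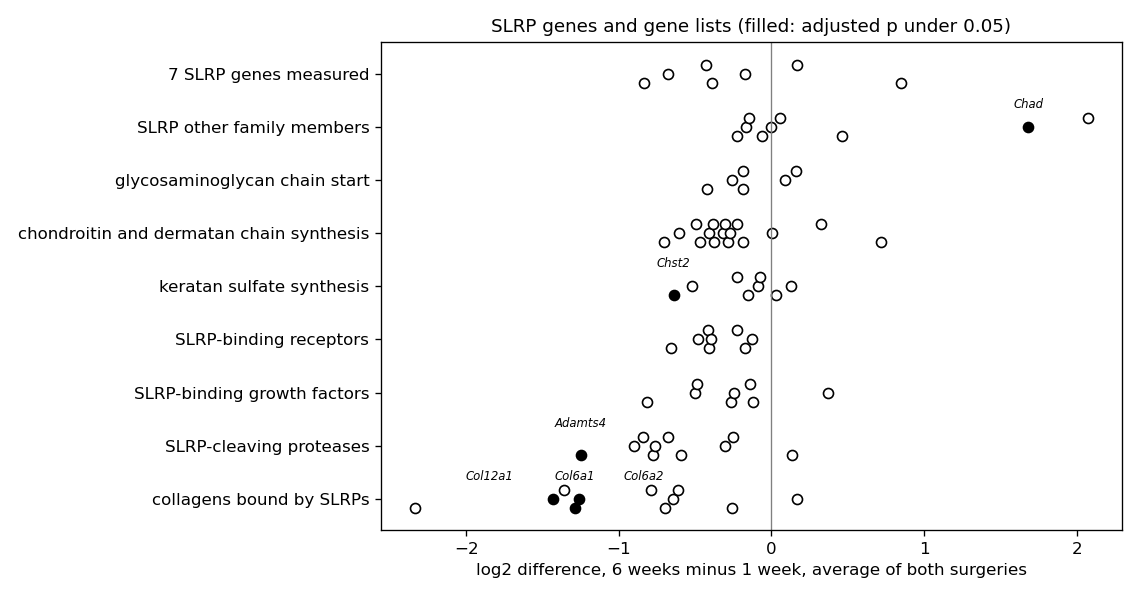
Log2 differences for 6 weeks minus 1 week, averaged over both surgeries, on the x axis, for the 7 measured SLRP genes and the genes of each pathway list on the y axis, 1 point per gene, filled where adjusted p was under 0.05. Collagens and proteases lie mostly below 0, with Col6a1, Col6a2, Col12a1 and Adamts4 filled, and Chad is the filled point above 0.

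The SLRP genes were then compared with each other from joint to joint, using each array's deviation from its group mean so that surgery and time dropped out. Over the 16 arrays, 17 of 21 pairs had a Pearson r above 0, with a median of 0.303. Lum and Omd had r = 0.912 and Spearman rho = 0.894 (permutation p = 0.00026, adjusted over the 21 pairs p = 0.00546), with r = 0.864 within slide 1 and 0.972 within slide 2. The r was 0.907 without the 2 arrays farthest from the median and 0.916 without sham replicate 2 at 6 weeks. Dcn and Omd had r = 0.862 (rho = 0.868, adjusted p = 0.0243 and 0.03), with 0.814 and 0.908 within the slides. Dcn and Lum, which are neighbours on chromosome 10, had r = 0.862 (rho = 0.797, adjusted p = 0.0243 and 0.0588), with 0.735 and 0.963 within the slides. Omd and Ogn, neighbours on chromosome 13, had r = 0.488, which was -0.095 without the 2 farthest arrays. Fmod and Prelp, neighbours on chromosome 1, had r = 0.113. Prelp had r between -0.122 and 0.174 with the other 6 genes, with opposite signs within the slides for each of these pairs. All of these arrays share the scaling to the 75th percentile.

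Each gene was also set against the mean of the osteoblast, chondrocyte and fibroblast lists, 21 relations in all and with group means removed. Slide means were not removed, and the permutations ran across both slides. Dcn followed the osteoblast list most closely (r = 0.86, rho = 0.847, permutation p = 0.00012, adjusted p = 0.00252), with 0.847 and 0.903 within the slides and 0.876 without the 2 farthest arrays. Lum, Fmod, Bgn and Omd had r of 0.744, 0.733, 0.702 and 0.682 with it, with adjusted p of 0.0273 for the first 3 and 0.0393 for Omd, while by Spearman's rho the adjusted p was 0.0505 to 0.0647. Without the 2 farthest arrays their r was 0.794, 0.622, 0.534 and 0.819. Without sham replicate 2 at 6 weeks it was 0.759, 0.657, 0.605 and 0.733. Ogn and Prelp had r of 0.03 and 0.221 with the osteoblast list, and the slides disagreed for Prelp, with 0.663 within slide 1 and -0.346 within slide 2. Prelp followed the chondrocyte list (r = 0.748, rho = 0.835, adjusted p = 0.0043 and 0.00546). That r was 0.73 and 0.508 within the slides, 0.725 without the 2 farthest arrays and 0.741 without sham replicate 2 at 6 weeks. Fmod had r = 0.609 with the chondrocyte list (adjusted permutation p = 0.0701), with 0.809 and 0.427 within the slides. With the fibroblast list, r ran from 0.004 for Ogn to 0.372 for Fmod, and the lowest adjusted permutation p was 0.437. The osteoblast list holds Col1a1 and Col1a2, and none of the lists holds an SLRP gene.

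**Figure D5:**
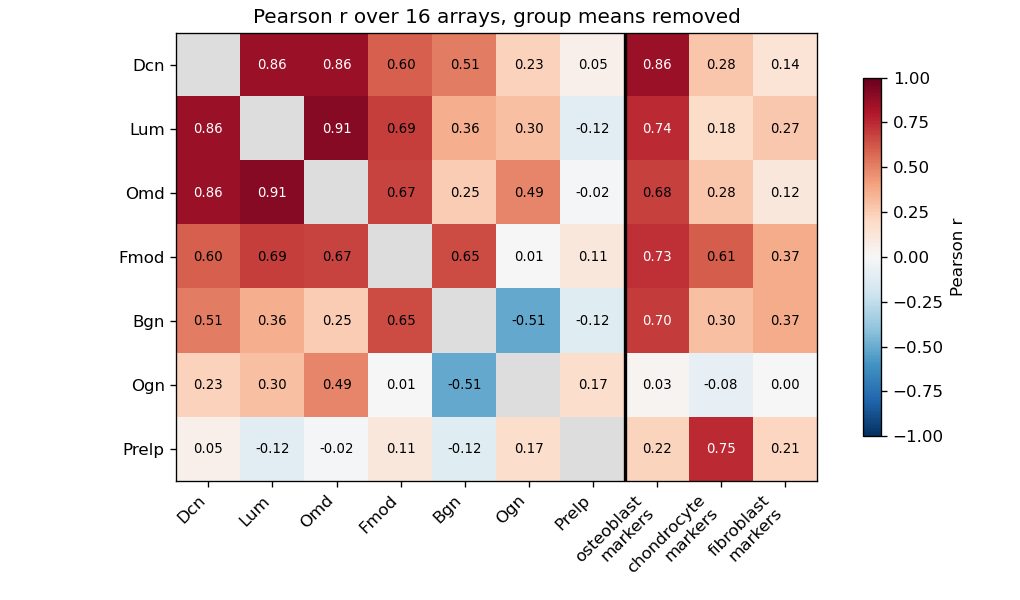
Pearson r over the 16 arrays after group means were removed, for the 7 measured SLRP genes in rows against each other and against the mean of 3 marker lists in columns, from -1 in blue to 1 in red. Dcn, Lum and Omd form the dark block of 0.86 to 0.91, and the row of Prelp is pale except at the chondrocyte markers (0.75).

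Over all 28249 other genes, the 3 whose deviations followed an SLRP gene most closely were found for Dcn, Lum, Omd, Fmod, Bgn and Prelp over the same 16 arrays, as a description. For Dcn they were Entpd3, Mlip and Col11a1 (r of 0.98, 0.96 and 0.96). For Lum they were Tmem45a, Rerg and Tceal6 (0.96, 0.95 and 0.94), and for Omd Slc6a15, Ikbip and Lca5l (0.95 each). For Fmod they were Gsg1l, Grrp1 and Sec31a (0.95, 0.92 and 0.92). Slc22a28 and 2 unnamed transcripts followed Bgn at 0.97 to 0.98. Dnajc27 and Sh3bgr, at 0.87 each, and 1 unnamed transcript at 0.90 followed Prelp. None of these nearest genes was another SLRP gene, and how high such values run among unrelated genes over 16 arrays was not tested.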

How the data were processed

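RNA of 16 joints was measured on Agilent 1-colour mouse arrays, on 2 slides of 8 with 2 arrays of each group per slide. Per the file headers, Feature Extraction 10.7.3.1 made the deposited intensity of each spot (gProcessedSignal, background-corrected) and a flag for signals well above background, and it had replaced 14.3% of spot values by surrogates near background. The authors also deposited a set of values read as log2 for 50815 probes, made with limma 3.20.9 per the submitters' processing notes, with medians of 7.24 to 7.34 per array and a correlation of 0.992 to 0.997 with the scanner values. The sources used here do not give its background correction and scaling, and it served as an alternative.

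Control spots and flagged outliers were left out of 59305 spots of 56605 probes, spots of a probe were averaged as log2 intensity, and each array's 75th percentile was subtracted. The filter asked for a signal well above background on 4 of the 16 arrays or more, which left 43268 probes, and of several probes of a gene the brightest by its mean was used (28250 genes). A model with 1 mean per group was fitted with limma 3.58.1 (lmFit, contrasts.fit, eBayes; 12 residual and 3.01 prior degrees of freedom), with Benjamini-Hochberg adjustment over all genes and a threshold of 0.05, and was tested on simulated data. The p-values are 2-sided. Correlations used 100000 permutations within groups, across both slides. Replicate numbers follow the order of the records. All SLRP genes, every called list gene, up to 3 further genes per list and comparison, and the 3 nearest genes of each SLRP gene could be named. The nearest genes of Ogn are not reported here. The SLRP genes and the lists were chosen with earlier results of these data known. Background, normalization, filter, slide, array weights, probe choice, the arrays in the fit and leaving out arrays were varied. Files were read in R 4.3.3 (jsonlite 2.0.0), and figures drawn in Python with matplotlib.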

Additional observations from a re-analysis of the deposited data

Results flagged for a closer look

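Among the 32 sets of 4 arrays examined (8 genes in 4 groups), 4 held a value whose gap to its nearest neighbour was a large share of the range of its group, past the 95% critical value of Dixon's ratio. Chance gives such a gap in about 5% of sets. Bgn read 3.2 and Ogn read -1.97 in sham replicate 2 at 6 weeks, the array with the lowest 75th percentile and a first principal component score apart from the rest. Omd read 0.33 in DMM replicate 4 at 6 weeks, above the other 3 DMM joints of that time. Aspn read -5.39 in sham replicate 4 at 1 week, the only array of that group where its probe was well above background.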

How the results depend on the processing

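No paired analysis was possible because no label ties any DMM mouse to a sham mouse, and replicate numbers were given in record order. Of 294 values of the 7 genes under other processing choices, arrays left out not counted, 277 kept their direction and their side of the threshold, 10 changed sign and 7 passed it newly. The sign changes were these: with the authors' value table, Prelp at 1 week was -0.0221 and the Dcn interaction -0.0072; with array weights, Bgn and Fmod at 6 weeks were 0.29 and 0.43, the Ogn interaction -0.31 and Prelp over both times 0.0276; with the mean of all probes, Prelp at 6 weeks was 0.0798, its interaction 0.0794 and its average 0.0401, and the Bgn average -0.0836. In the fit of each probe, added after seeing the data, Bgn at 1 week was -0.15 and over both times -0.20 and -0.16 on its other probes, and Prelp on its other probe was -0.0146 at 1 week, 0.28 at 6 weeks, 0.29 for the interaction and 0.13 on average. Array weights also moved most DMM values of the 7 genes by over 1.5 times, to 1.25, 1.40 and 1.31 for Dcn, Lum and Omd at 6 weeks, with no call among them. With the authors' value table those 6-week values were 0.46, 0.50 and 0.56. The cause of these changes was not tested. The 247 genes called for time became 408 with normexp background, 0 without a filter, 451 with detection on all 16 arrays, 645 with slide as a block and 5884 with array weights, where DMM at 6 weeks called 1 gene and the interaction 2. Leaving out 1 array gave 0 to 1502 genes for time: 1502 without sham replicate 2 at 6 weeks, 695 without DMM replicate 3 at 1 week, 490 without DMM replicate 3 at 6 weeks, 311 without sham replicate 3 at 1 week, and 0 to 3 without each of the other 12. It gave 0 to 1 for DMM at 6 weeks and 0 for the other comparisons. Of 560 such values of the 7 genes 23 changed sign, within -0.14 to 0.44 for Lum, -0.16 to 0.67 for Omd, -0.30 to 0.75 for Ogn and -0.22 to 0.31 for Prelp at 1 week; -0.33 to 0.21 for Bgn and -0.40 to 0.25 for Fmod at 6 weeks; -0.0912 to 0.39 for Dcn, -0.0164 to 0.81 for Omd, -0.24 to 0.81 for Ogn and -0.42 to 0.10 for Prelp in the interaction; -0.17 to 0.0941 for Prelp on average; and -0.10 to 0.42 for Ogn over time. The limma p-values rest on the spread among mice within groups of 4, pooled over the 4 groups and drawn toward that of all genes. Those of the correlations come from permutations within groups across both slides, so a shift between the slides can enter them. Signal near background limits Aspn and the third Prelp probe.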
